A study of Mus musculus with 6 samples.

Results

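The topoisomerases and tyrosyl-DNA phosphodiesterases are 8 genes, Top1, Top1mt, Top2a, Top2b, Top3a, Top3b, Tdp1 and Tdp2, taken by symbol from the 22105 genes with Ensembl identifiers in the deposited table. All 8 were present, and all 8 passed the filter on low values. They were measured by RNA sequencing in RAW264.7, a mouse macrophage cell line. The PBS group was 3 libraries from cells given phosphate buffered saline. The nanoparticle group was 3 libraries from cells given CM-PEG-PLGA@DOX/R848 particles, dosed to deliver 2 µg/mL of DOX (doxorubicin). Exposure lasted 24 h in both groups. R848 is resiquimod, a Toll-like receptor agonist, PEG and PLGA are carrier polymers, and CM is not spelled out in the labels. No library had empty particles, free DOX or R848 alone, so their parts in any difference cannot be told apart. The labels do not say whether the replicates were separate cultures, and the p-values therefore cover the spread between these libraries, which may be technical.

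Topoisomerases relieve the twisting and tangling of DNA by cutting it, passing strands and resealing the cut, and during the cut a tyrosine of the enzyme is bound to the DNA end. Type IB enzymes (Top1 in the nucleus, Top1mt in mitochondria) cut a single strand, type II enzymes (Top2a in proliferating cells, Top2b in most cells) cut both strands, and type IA enzymes (Top3a and Top3b) pass single strands. Doxorubicin traps type II enzymes on DNA. Tdp1 and Tdp2 remove the tyrosine left on such ends: Tdp1 acts mainly on 3′ ends, where Top1 becomes trapped, and Tdp2 mainly on 5′ ends, where Top2a and Top2b do.

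Promoter sequences in RefSeq's table (GRCm38.p6) matched 5 of the 8 genes. The 250 bases before the transcription start are shown for 4 of them: both DOX targets, the phosphodiesterase gene that fell, and Top1, which rose. Capitals mark CCAAT boxes (CCAAT or ATTGG, the site bound by NF-Y), the cell cycle homology motif (TTTGAA, its reverse complement TTCAAA, or TTCGAA), GC boxes (GGGCGG or CCGCCC) and E boxes (CACGTG), searched on both strands, with no overlap between matches.
Top2a, chr11:99024190-99024439, minus strand: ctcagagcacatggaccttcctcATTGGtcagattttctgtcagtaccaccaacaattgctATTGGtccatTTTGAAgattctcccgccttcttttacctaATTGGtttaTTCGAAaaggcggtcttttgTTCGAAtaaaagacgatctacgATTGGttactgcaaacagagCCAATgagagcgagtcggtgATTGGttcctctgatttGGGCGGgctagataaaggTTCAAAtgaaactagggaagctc
Top2b, chr14:16364956-16365205, plus strand: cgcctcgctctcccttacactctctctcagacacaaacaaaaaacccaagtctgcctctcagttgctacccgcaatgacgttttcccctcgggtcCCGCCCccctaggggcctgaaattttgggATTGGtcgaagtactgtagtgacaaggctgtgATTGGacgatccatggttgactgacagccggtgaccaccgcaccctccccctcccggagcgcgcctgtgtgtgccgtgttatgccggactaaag
Tdp1, chr12:99884268-99884517, plus strand: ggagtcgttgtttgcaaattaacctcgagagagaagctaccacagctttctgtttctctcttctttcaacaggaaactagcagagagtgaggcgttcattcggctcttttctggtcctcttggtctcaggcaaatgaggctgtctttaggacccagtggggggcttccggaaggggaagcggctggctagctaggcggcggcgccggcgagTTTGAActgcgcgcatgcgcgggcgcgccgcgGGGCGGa
Top1, chr2:160645647-160645896, plus strand: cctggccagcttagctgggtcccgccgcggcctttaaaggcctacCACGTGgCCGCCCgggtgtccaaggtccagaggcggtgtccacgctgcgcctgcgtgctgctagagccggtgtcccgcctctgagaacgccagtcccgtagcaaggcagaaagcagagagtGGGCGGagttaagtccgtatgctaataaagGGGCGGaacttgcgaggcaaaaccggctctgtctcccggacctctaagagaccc
The Top2a window held 6 CCAAT boxes, 5 of them inverted. At least 6 were found in 19 of 32817 windows of this length (0.0579%), while 33.8% of windows held at least 1. It also held TTCGAA at 2 positions, a motif found in 1.33% of windows, TTTGAA or its reverse complement at 2 positions (16.0% of windows) and 1 GC box (32.7% of windows). The Top2b window held 2 CCAAT boxes, both inverted, a number reached by 10.1% of windows, and 1 GC box. The Tdp1 window held 1 TTTGAA and 1 GC box and no CCAAT box. The Top1 window held 3 GC boxes and 1 E box (6.02% of windows). A match is a description of letters, not of binding.

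Of the 8 genes, 2 rose (Top1 and Top3a), 4 fell (Top1mt, Top2a, Top2b and Tdp1) and 2 did not pass (Top3b and Tdp2). The test was limma on log2(FPKM + 1), with a Benjamini-Hochberg adjusted p threshold of 0.05. FPKM is fragments scaled by transcript length and library size. The unit was inferred and the normalization is not given, so setting levels beside each other between genes rests on that inference. Of all 10229 genes tested 77.2% passed, 42.7% higher and 34.5% lower, so the 75.0% of these genes that passed is near the background. Groups did not overlap at 7 of the 8, against 78.8% of all genes tested (43.7% higher and 35.1% lower). Tdp1 had the lowest log2 fold change of the 8 and Top3a the highest. The median of the 8 was -0.21, against 0.08 over all genes tested.

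**Figure D1:**
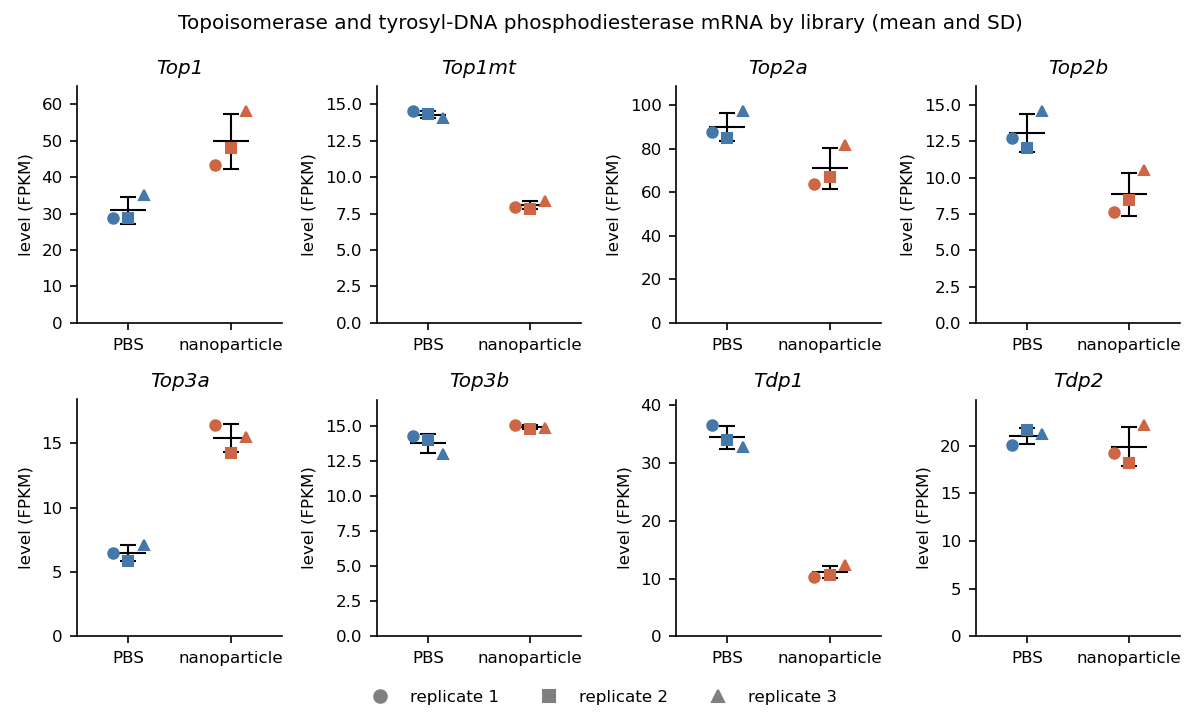
Level of each of the 8 genes (y axis, FPKM, from 0) in PBS (blue) and nanoparticle (orange) libraries, with a symbol for each replicate and the mean and SD in black. Nanoparticle libraries lie above PBS libraries for Top1 and Top3a, and below them for Top1mt, Top2a, Top2b and Tdp1. For Tdp2, nanoparticle replicates 1 and 2 lie below all PBS libraries and replicate 3 above all of them. Top3b libraries are separated by less than 1 FPKM at their nearest.

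Both type II genes, the targets of DOX, were lower after nanoparticles, and Top2a stayed the most abundant of the 8 in every library. Top2a (ENSMUSG00000020914, chromosome 11, 98992943 to 99024189, GRCm38) stood at 87.6, 84.9 and 97.1 FPKM in PBS replicates 1 to 3, and at 63.9, 67.1 and 81.7 FPKM in the corresponding nanoparticle replicates. The highest nanoparticle library lay just under the lowest PBS library. Top2a fell by 0.34 ± 0.09 on the log2 scale (SE, 95% interval -0.55 to -0.14, limma adjusted p = 0.0065). Without nanoparticle replicate 3 its log2 fold change was -0.45, and without nanoparticle replicate 1 it was -0.27. In bulk RNA, fewer cells expressing a gene and less of its RNA per cell cannot be told apart.

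Top2b (ENSMUSG00000017485, chromosome 14, 16365179 to 16435462), the isoform that resting cells also use, was at 12.7, 12.0 and 14.6 FPKM under PBS and 7.63, 8.44 and 10.5 FPKM with nanoparticles. The groups did not overlap, and replicate 3 was the highest of each, as for Top2a. Top2b fell by 0.52 ± 0.11 on the log2 scale (SE, limma adjusted p = 0.0017). With a pseudocount of 10, which shrinks the change of low genes, the value was -0.29. Top2b overlaps Rarb on the opposite strand over 4624 bases. Rarb had a mean of 2.84 FPKM under PBS and 1.57 FPKM with nanoparticles, and the sources used here do not say whether fragments were assigned by strand.

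The type IB genes moved in opposite directions. Top1 (ENSMUSG00000070544, chromosome 2, 160645888 to 160722764), the nuclear enzyme that relaxes DNA ahead of transcription and replication, was at 28.7, 28.9 and 35.2 FPKM under PBS and 43.2, 48.1 and 58.0 FPKM with nanoparticles. Every nanoparticle library exceeded every PBS library, although the spread within each group was among the widest of the 8 genes (11.9% and 15.2% of the mean). Top1 rose by 0.67 ± 0.11 on the log2 scale (SE, 95% interval 0.42 to 0.92, limma adjusted p = 3.5e-04). Top1mt (ENSMUSG00000000934, chromosome 15, 75657035 to 75678800), the mitochondrial enzyme, was at 14.5, 14.3 and 14.0 FPKM under PBS and 7.97, 7.83 and 8.36 FPKM with nanoparticles. Its groups were tight and far apart. Top1mt fell by 0.76 ± 0.06 on the log2 scale (SE, limma adjusted p = 2.4e-06), and by 0.43 with a pseudocount of 10.

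Of the type IA genes, Top3a rose and Top3b did not pass. Top3a (ENSMUSG00000002814, chromosome 11, 60740058 to 60777365) works with the Blm helicase to undo joined DNA molecules after recombination, and a form of it works in mitochondria. Top3a was the least abundant of the 8 in PBS, with 6.47, 5.84 and 7.12 FPKM, and stood at 16.4, 14.2 and 15.5 FPKM in nanoparticle libraries. The ratio of mean FPKM was 2.38, and Top3a rose by 1.13 ± 0.08 on the log2 scale (SE, limma adjusted p = 1.1e-06), a change exceeded by 9.20% of the genes tested. With a pseudocount of 10 the log2 fold change was 0.62. Top3b (ENSMUSG00000022779, chromosome 16, 16870736 to 16892990), which pairs with Tdrd3 and also acts on RNA, was at 14.3, 14.1 and 13.0 FPKM under PBS and 15.1, 14.8 and 14.9 FPKM with nanoparticles. These groups did not overlap, but the log2 fold change was only 0.11, with a 95% interval of -0.03 to 0.25 (limma adjusted p = 0.13).

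Of the phosphodiesterase genes, Tdp1 fell and Tdp2 did not pass. Tdp1 (ENSMUSG00000021177, chromosome 12, 99884517 to 99955219) was at 36.6, 33.9 and 32.7 FPKM under PBS and 10.3, 10.7 and 12.3 FPKM with nanoparticles. The PBS mean was 3.10 times the nanoparticle mean, and no nanoparticle library came near the PBS range. Tdp1 fell by 1.55 ± 0.08 on the log2 scale (SE, 95% interval -1.72 to -1.38, limma adjusted p = 6.3e-08), and 187 of the 10229 genes tested (1.83%) had a lower fold change. Tdp2 (ENSMUSG00000035958, chromosome 13, 24831679 to 24842153), which acts on trapped type II enzymes, was at 20.1, 21.7 and 21.2 FPKM under PBS and 19.2, 18.2 and 22.2 FPKM with nanoparticles. The groups overlapped, and the log2 fold change was -0.08 with a 95% interval of -0.25 to 0.10 (limma adjusted p = 0.37). Tdp2 passed as lower without nanoparticle replicate 3 (log2 fold change -0.16, limma adjusted p = 0.049) and after upper quartile scaling of the libraries (-0.18, limma adjusted p = 0.046).

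**Figure D2:**
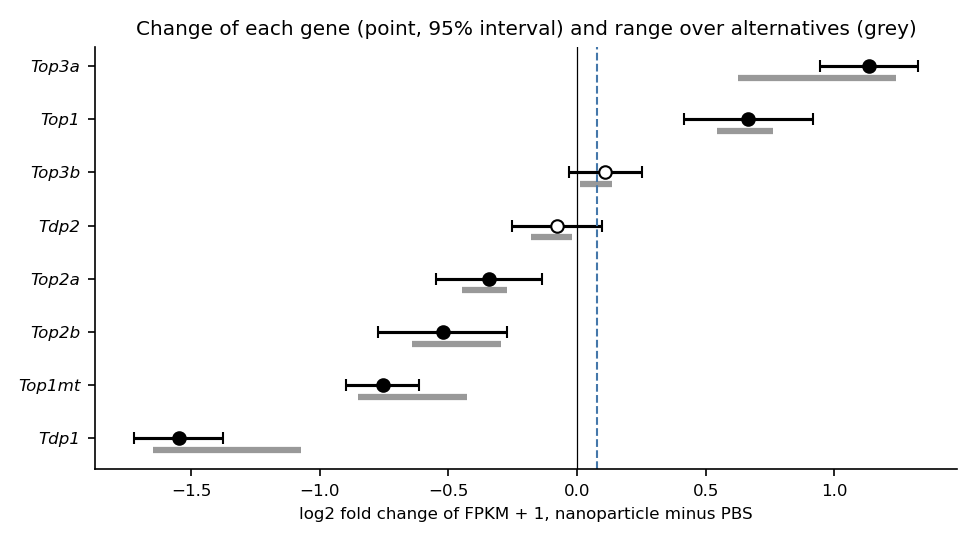
Log2 fold change of FPKM + 1, nanoparticle minus PBS (x axis), for each of the 8 genes, with the 95% interval from limma. Filled points passed an adjusted p of 0.05, open points did not, grey bars span the values under 14 alternatives, and the dashed line is the median of all genes tested (0.08). The bars of all 8 genes, filled or open, stay on 1 side of 0.

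The order of the 8 levels changed between the groups below Top2a. In PBS the means ran Top2a 89.9, Tdp1 34.4, Top1 30.9, Tdp2 21.0, Top1mt 14.3, Top3b 13.8, Top2b 13.1 and Top3a 6.48 FPKM. Libraries of Tdp1 and Top1 overlapped, as did those of Top1mt and Top3b and those of Top3b and Top2b. In nanoparticle libraries the means ran Top2a 70.9, Top1 49.8, Tdp2 19.9, Top3a 15.4, Top3b 15.0, Tdp1 11.1, Top2b 8.87 and Top1mt 8.05 FPKM. There Top3a overlapped Top3b, Tdp1 overlapped Top2b and Top2b overlapped Top1mt. Tdp1 thus went from rank 2 to rank 6 and Top3a from rank 8 to rank 4. Summed over the 8 genes, the level was 224 ± 9.91 FPKM under PBS and 199 ± 21.5 FPKM with nanoparticles (SD, n = 3, two-sided exact permutation p = 0.3), and the groups overlapped. Paired by replicate number, the sum was lower with nanoparticles in 3 of 3 pairs, with differences of -37.1, -26.1 and -11.3 FPKM (exact sign-flip p = 0.25, the smallest that 3 pairs can give).

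Within each library, the balance of the pairs was measured as a share of their summed FPKM. Top2a made up 87.3%, 87.6% and 86.9% of type II topoisomerase FPKM in PBS and 89.3%, 88.8% and 88.6% in nanoparticle libraries. The difference in means was 1.64 percentage points, and the groups did not overlap. Top1mt made up 33.5%, 33.2% and 28.5% of type IB FPKM in PBS and 15.6%, 14.0% and 12.6% in nanoparticle libraries. Tdp2 made up 35.4%, 39.0% and 39.4% of phosphodiesterase FPKM in PBS and 65.0%, 63.1% and 64.3% in nanoparticle libraries. Tdp1 was therefore the more abundant phosphodiesterase mRNA in each PBS library and Tdp2 in each nanoparticle library. For each of these 3 shares the two-sided exact permutation p was 0.1 (0.133 adjusted over 4 quantities, the sum included), the smallest that 3 against 3 libraries can give.

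**Figure D3:**
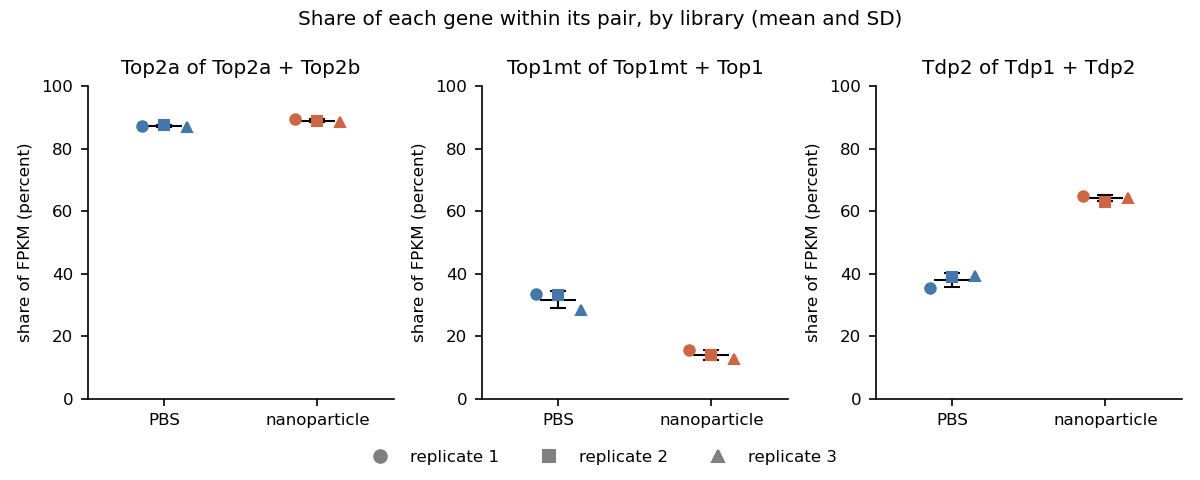
Share of FPKM within each pair (y axis, percent, 0 to 100) by library, with replicate symbols, mean and SD, PBS in blue and nanoparticle in orange. Top2a holds 86.9% to 89.3% of its pair in all 6 libraries, while Top1mt goes from a mean of 31.7% to 14.1% and Tdp2 from 37.9% to 64.1%.

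The partner genes were read from the same fit in 7 lists. The shares of a list that rose or fell are set beside the 42.7% and 34.5% of all genes tested, as descriptions, since the difference from other genes was not tested. Of 23 genes that repair trapped complexes alongside Tdp1 and Tdp2, 12 rose, 3 fell (Parp1, Mre11a and Eme1) and 8 did not pass, with a median log2 fold change of 0.25. That is 52.2% higher and 13.0% lower, and 9 genes passed as higher under either scaling of the libraries. Of the genes that rose, Lig3 (limma adjusted p = 0.049) lost the call under 10 of 14 alternatives and Rbbp8 (0.04) under 6. Where the call was lost, limma adjusted p ran from 0.05 to 0.19 for Lig3 and from 0.088 to 0.15 for Rbbp8. The call of Eme1 (limma adjusted p = 0.042) was lost under 6 of 14 alternatives, among them leaving out PBS replicate 1, 2 or 3 or nanoparticle replicate 1 or 2 (limma adjusted p of 0.05 to 0.17 over the 6). Parp1, which senses strand breaks and recruits Tdp1, was at 86.7 ± 0.151 FPKM under PBS and 21.1 ± 1.06 FPKM with nanoparticles (SD, n = 3), and fell by 1.99 on the log2 scale (limma adjusted p = 1.5e-09). Ercc1, a subunit of the nuclease that can cut off trapped Top1, rose from 10.5 ± 0.147 to 44.2 ± 3.54 FPKM. Ercc4, the other subunit, did not pass, at 6.17 ± 0.241 and 6.60 ± 0.221 FPKM (limma adjusted p = 0.29). Ercc1 overlaps Polr1g on the opposite strand over 511 bases (23.2 FPKM under PBS and 21.9 FPKM with nanoparticles). Sprtn, a protease of DNA-protein crosslinks, rose from 3.65 ± 0.177 to 8.07 ± 0.509 FPKM. Zfp451, a partner of Tdp2, rose from 7.87 ± 0.276 to 9.23 ± 0.900 FPKM (limma adjusted p = 0.042), a call lost under 8 of 14 alternatives. These were the fit without a filter, both scalings, and leaving out PBS replicate 1, 2 or 3 or nanoparticle replicate 2 or 3 (limma adjusted p of 0.058 to 0.22 over the 8). Sprtn, Zfp451, Ercc4, Lig3, Rbbp8 and Mre11a (log2 fold change -0.37) were chosen for mention after their values were seen.

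End joining genes rejoin the broken ends that trapped type II enzymes leave. Of 13 listed, 6 rose, 5 fell (Xrcc6, Prkdc, Xrcc4, Trp53bp1 and Rif1) and 2 did not pass, with a median log2 fold change of 0.13. The shares, 46.2% higher and 38.5% lower, are near those of all genes tested. Xrcc6, the Ku70 subunit, fell from 39.6 ± 0.554 to 14.5 ± 1.39 FPKM (limma adjusted p = 8.7e-08). Its span overlaps Desi1 on the opposite strand over 41340 bases (25.6 FPKM under PBS and 30.2 FPKM with nanoparticles). Xrcc5, the Ku80 subunit, rose from 5.77 ± 0.217 to 7.98 ± 0.221 FPKM, and was named after its value was seen. Polm, a polymerase of end joining, rose from 2.73 ± 0.0648 to 5.88 ± 0.255 FPKM. Without PBS replicate 3, nanoparticle replicate 1 or nanoparticle replicate 2, only 3 genes passed as lower, since Trp53bp1 and Rif1 lost the call. Lig4, which rose (limma adjusted p = 0.029), lost the call under 6 of 14 alternatives (limma adjusted p of 0.061 to 0.091). Lig4 was named after its values were seen.

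Of 9 listed partners of the type IA enzymes and RecQ helicases, 8 were tested, of which 1 rose (Rmi1), 4 fell (Tdrd3, Recql4, Wrn and Blm) and 3 did not pass, with a median log2 fold change of -0.21. That is 12.5% higher and 50.0% lower. Rmi1, which joins Top3a and Blm in a complex, rose from 7.16 ± 0.215 to 12.8 ± 1.24 FPKM (limma adjusted p = 1.2e-05). Rmi1 overlaps Hnrnpk on the opposite strand over 1096 bases (237 FPKM under PBS and 259.7 FPKM with nanoparticles). Blm, the helicase of that complex, fell from 12.7 ± 0.926 to 9.88 ± 1.40 FPKM, and Rmi2, its remaining subunit, was under the filter at 0.968 and 1.01 FPKM. Tdrd3, the scaffold of Top3b, fell from 6.20 ± 0.313 to 3.11 ± 0.519 FPKM (limma adjusted p = 3.5e-05). Blm and Rmi2 were chosen for mention after their values were seen.

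Condensin subunits compact chromosomes together with Top2a. Of 8 listed, 6 fell, 1 rose (Ncapg) and 1 did not pass (Smc4), with a median log2 fold change of -0.37. That is 75.0% lower, against 34.5% of all genes tested, with no test of the difference. Ncapd2 fell from 45.8 ± 0.731 to 22.3 ± 1.33 FPKM and Ncapd3 from 22.7 ± 1.55 to 10.8 ± 0.834 FPKM, while Ncapg rose from 29.8 ± 1.56 to 37.3 ± 4.81 FPKM. Genes of S, G2 and M phase, the stages at which Top2a is made, numbered 25. Of these, 11 fell (44.0%), 8 rose (32.0%) and 6 did not pass, with a median log2 fold change of -0.09. Bub1b and Aurkb, of the spindle checkpoint and the chromosomal passenger complex, had log2 fold changes of -1.17 and -0.89, and Aurka, a spindle pole kinase, of 0.83. Cdk1 was at 42.1 ± 0.885 and 42.6 ± 2.18 FPKM (limma adjusted p = 0.80), and was named after its value was seen. After upper quartile scaling 5 of these genes passed as higher, as Cenpf, Ckap2l and Ube2c lost the call, and 13 passed as lower. In the fit without a filter, and without PBS replicate 3 or nanoparticle replicate 1 or 2, 8 passed as lower. There Mki67, Kif11 and Dlgap5 lost the call.

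Genes that maintain mitochondrial DNA, where Top1mt and a form of Top3a act, moved both ways, with log2 fold changes of -0.36 (Tfb1m) to 0.37 (Twnk). Of 10 listed, 2 rose (Twnk and Tfam), 4 fell (Polg, Ssbp1, Tfb1m and Tefm) and 4 did not pass, with a median log2 fold change of -0.02. That is 20.0% higher and 40.0% lower. Twnk, the mitochondrial helicase, rose from 21.9 ± 1.26 to 28.6 ± 1.64 FPKM, and Polg, the mitochondrial DNA polymerase, fell from 10.4 ± 0.496 to 8.02 ± 0.299 FPKM. Each overlaps a gene on the opposite strand that was lower, Mrpl43 (44.4 FPKM under PBS and 22.4 FPKM with nanoparticles) for Twnk and Fanci (10.4 and 3.49 FPKM) for Polg. The call of Tfam was lost without PBS replicate 1, 2 or 3, without nanoparticle replicate 2 and under both scalings, leaving 1 gene higher. The call of Tefm was lost without PBS replicate 2 or 3 or nanoparticle replicate 2. Of 11 genes of anthracycline transport and reduction, 5 were under the filter (Abcb1a, Abcc3, Abcg2, Slc22a16 and Nqo1), 4 rose (Cbr1, Cbr3, Por and Akr1a1), 1 fell and 1 did not pass. That is 66.7% higher and 16.7% lower of only 6 tested, against 42.7% and 34.5% of all genes tested. The carbonyl reductase genes Cbr1 and Cbr3, whose enzymes reduce doxorubicin, rose from 15.1 ± 0.760 to 29.3 ± 0.706 FPKM and from 5.98 ± 0.425 to 16.8 ± 2.28 FPKM. The exporter gene Abcc1 fell from 22.7 ± 0.322 to 18.5 ± 0.504 FPKM, and the exporter gene Abcb1b, at 29.0 ± 0.830 and 28.5 ± 2.42 FPKM, was the tested gene that did not pass. Of the other partner genes named, Lig3, Mre11a, Eme1, Xrcc4, Trp53bp1, Recql4 and Ncapg overlap an expressed gene on the opposite strand. Their levels are therefore uncertain.

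**Figure D4:**
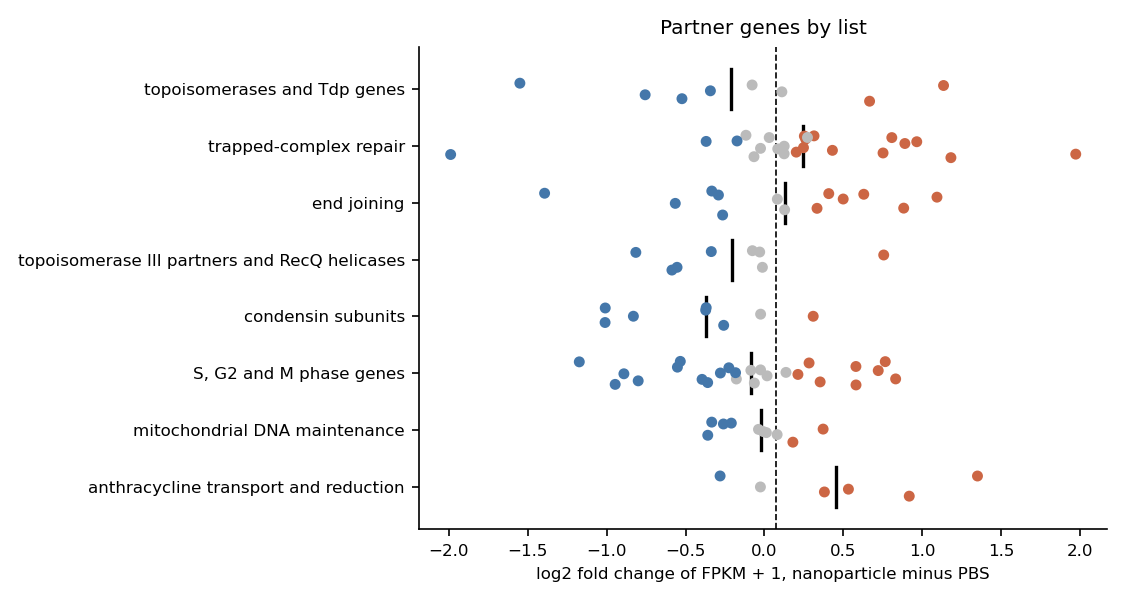
Log2 fold change of FPKM + 1, nanoparticle minus PBS (x axis), of the 8 genes (top row) and of the tested genes of 7 partner lists, 1 point a gene, spread vertically for legibility. Orange points passed as higher, blue as lower and grey did not pass. Black bars are list medians, from -0.37 for condensin subunits to 0.46 for anthracycline genes, and the dashed line is the median of all genes tested (0.08).

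Part of the spread of Top1, Top2a and Top2b ran with the replicate number. These 3 genes were highest in replicate 3 of both groups. Relative to its group mean, nanoparticle replicate 3 stood at 0.23 for Top1, 0.21 for Top2a and 0.23 for Top2b on the log2(FPKM + 1) scale, and PBS replicate 3 at 0.19, 0.11 and 0.15. Over the 1350 tested genes with a longest transcript of 6000 bases and over, the median deviation was 0.06 in PBS replicate 3 and 0.10 in nanoparticle replicate 3. Over the 2198 genes under 2000 bases it was -0.04 and -0.08. The longest annotated transcripts of Top1, Top2a and Top2b have 3856, 5221 and 10335 bases, and those of Top1mt and Tdp2 have 1903 and 1957 bases. Top1mt and Tdp2 stood at 0.05 and 0.16 in nanoparticle replicate 3 and at -0.02 and 0.01 in PBS replicate 3. Tdp1, Top3a and Top3b, with 3945, 3741 and 3511 bases, are in the same length range as Top1. Tdp1, Top3a and Top3b stood at 0.14, 0.01 and -0.004 in nanoparticle replicate 3. In PBS replicate 3 the values were -0.07, 0.12 and -0.08. The part of transcript length in the values of these genes was not tested.

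**Figure D5:**
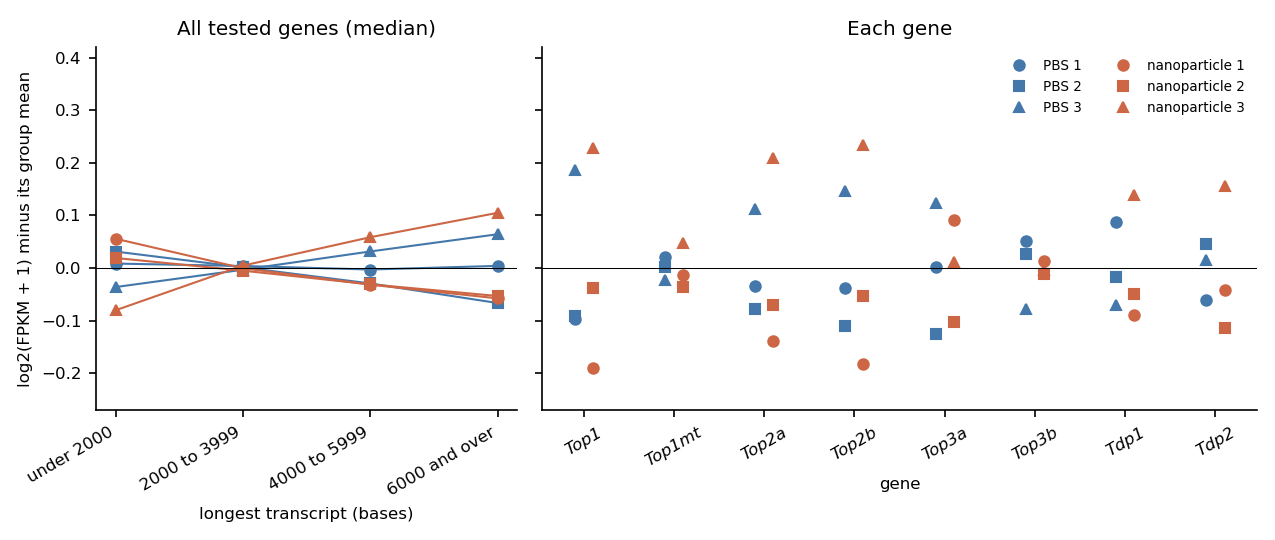
Deviation of each library from its group mean on the log2(FPKM + 1) scale (y axis), on the left as the median over all tested genes by longest transcript length and on the right for each of the 8 genes. PBS libraries are blue and nanoparticle libraries orange, with a symbol for each replicate. In replicate 3 of both groups (triangles) the median rises with length, and Top1, Top2a and Top2b lie at 0.11 to 0.23.

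The genes most like Top2a over the 6 libraries, among 8118 others with a mean of at least 5 FPKM, were Rbm39 (Pearson r = 0.998), Tmem175 (0.997) and Aqr (0.996) on the log2(FPKM + 1) scale. Each was lower after nanoparticles and highest in replicate 3 of both groups. The genes most like Top1 were Exoc1 (0.999), Arid4a (0.998) and Ttc39b (0.998), each higher after nanoparticles and highest in replicate 3 of both groups. These correlations are descriptions over 6 libraries that form 2 groups. Since the genes were chosen by correlation over these libraries, the shared direction and the replicate 3 peak follow from the choice.

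As facts of the series, the number of genes with a value above 0 was 12678 to 12872 under PBS and 15723 to 15989 with nanoparticles. The macrophage markers Spi1, Cd68, Lyz2, Itgam, Cd14, Fcgr1, Csf1r and Adgre1 were all tested, and 2 rose and 5 fell. Of all genes tested 42.7% rose and 34.5% fell. The summed level of these markers was 3360 to 3500 FPKM in PBS and 1430 to 1530 FPKM in nanoparticle libraries, and macrophage markers were thus present in both groups. Lyz2 was at 1480 to 1540 FPKM in PBS and 389 to 406 FPKM in nanoparticle libraries, and Adgre1 at 1.61 to 1.96 and 11.2 to 13.4 FPKM. Markers of T cells, B cells, neutrophils, fibroblasts and epithelial cells summed to at most 0.535 FPKM for any list in any PBS library and 0.904 FPKM in any nanoparticle library, and Cd8a and Krt18 were listed at 0 in all 6. The part of the wider detection in the values of the 8 genes was not tested.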

How the data were processed

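RNA of 6 RAW264.7 libraries was sequenced after TRIzol extraction and an mRNA library protocol, per the labels' protocols. The authors deposited 1 table with a column of FPKM per library. No header names the unit, FPKM was inferred from the values, and TPM with rows removed cannot be told apart from it. Per the submitters' processing notes, which give no versions, STAR and featureCounts were used with GRCm38 and mm10. The sources used here give neither the normalization nor the depth per library, so no interval from counts is given. Groups came from the sample titles. The column of PBS replicate 1 adds a suffix to its library name, with no meaning given. Of 22614 rows, 509 without Ensembl gene identifiers (0.427% to 0.497% of FPKM) were left out.

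Genes whose mean reached 1 FPKM were tested with limma 3.58.1 (R 4.3.3, intensity trend, treatment as the only term, two-sided) on log2(FPKM + 1), which understates changes of low genes, with Benjamini-Hochberg adjustment over all genes tested. The script was tested on simulated data. Single quantities were compared by exact permutation (scipy 1.17.1). Coordinates are from GENCODE M21 (GRCm38). Python 3.11.15, pandas 2.3.3 and matplotlib 3.10.9 were used. The genes and lists were chosen with earlier results of these data known. The text names all 8 genes, the 2 lowest p-values of each partner list, its most significant passing gene against the majority, and the 3 genes most like Top2a and Top1. All other partner genes in the text were chosen after their values were seen. Same-numbered libraries deviated together over 10229 genes (correlations 0.130, 0.115 and 0.354 for replicates 1, 2 and 3, all above 0.1). PBS replicate 2 against nanoparticle replicate 1 gave 0.134, above 2 of these values. Pairing by number is thus a hint from the data and not from the labels. It entered only the replicate block and the paired comparisons of the shares and the sum. The main fit and the other permutation tests were unpaired. Alternatives were another pseudocount, filter, scaling or trend, a replicate block and leaving out each library.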

Additional observations from a re-analysis of the deposited data

How the results depend on the processing

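The calls of 7 of the 8 genes, and the directions of all 8, held under all 14 alternatives run. Tdp2 was the exception, passing as lower after upper quartile scaling and without nanoparticle replicate 3, and the cause was not tested. Over the alternatives the limma adjusted p reached at most 0.026 for Top2a, 0.011 for Top2b and 0.0041 for Top1, and for Tdp2 it ran from 0.046 to 0.83. With the replicate block 4609 genes passed as higher and 3742 as lower, against 4366 and 3530 without it. The block changed no call of the 8 genes or of the partner genes named with a call, and among the other partner genes it added Xrcc1 as higher (limma adjusted p = 0.031) and Kif23 as lower (0.0049). Upper quartile scaling turned the median log2 fold change of all genes tested from 0.076 to -0.018 and moved the higher part of the calls from 55.3% to 48.3%. Leaving out each library moved the difference in the Top2a share between 1.43 and 1.80 percentage points. For the Top1mt share the difference ran from -19.3 to -16.8 and for the Tdp2 share from 25.0 to 26.9. For the summed level it ran from -37.1 to -17.3 FPKM. With all libraries, the summed level differed by -36.5 FPKM after median-ratio scaling and by -40.4 FPKM after upper quartile scaling. The two-sided exact permutation p of the sum was 0.1 after either scaling, against 0.3 without scaling. Paired by replicate number, an alternative added after seeing the data, the 3 shares and the sum kept their direction in 3 of 3 pairs (exact p = 0.25 each). A filter of at least 5 FPKM left 3 end joining genes higher and 2 type IA partners lower, since fewer genes were tested. With an unknown depth, counting error cannot be separated from the spread of 3 libraries.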
